A study of Mus musculus with 6 samples.

Results

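Wnt signalling genes were followed in mouse E14 embryonic stem cells that had been exposed for 16 h to low doses of histone deacetylase inhibitors. The set held 60 gene symbols chosen for their role in the pathway: Wnt ligands and the enzyme that matures them, receptors, secreted and membrane antagonists, the destruction complex with beta-catenin and Dishevelled, nuclear factors, and target genes. A symbol counted as measured when a probeset of the array carried that symbol alone, and where several did, the brightest on average was taken. By that rule 59 of the 60 genes were measured, among 19938 genes in the whole table. Tcf7 had no such probeset and was not analysed here.

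Wnt ligands are lipid-modified secreted proteins that bind Frizzled receptors and the co-receptors Lrp5 and Lrp6. Without a ligand, beta-catenin is phosphorylated in a complex of Axin, Apc and Gsk3 and then degraded; with a ligand the complex is held at the membrane through Dishevelled, and beta-catenin enters the nucleus and acts on Tcf and Lef proteins at target genes. In mouse embryonic stem cells the pathway is known for supporting self-renewal, and Tcf7l1 is known as a repressor that shares many binding sites with Oct4 and Nanog.

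The study held 3 groups of 2 arrays each: cells given 0.5 mM valproic acid (VPA), cells given 0.2 mM sodium butyrate (NaBu), and cells that received neither. Both compounds are fatty acids that inhibit histone deacetylases. All 3 groups were E14 cells, an established mouse line, kept on mitomycin-C-treated primary embryonic fibroblasts in medium with 15% serum and leukaemia inhibitory factor, so every RNA sample came from a culture with feeder cells in it. Within each group the arrays were numbered replicate 1 and replicate 2, and the labels do not say whether they came from separate cultures, so the p-values measure only the spread between these samples, which may be technical. Values are log2 expression, on which a difference of 1 is a 2-fold change. They compare arrays for the same gene and not genes with each other. For each gene below, the replicate 1 value comes first and the replicate 2 value second.

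The 6 arrays had similar overall levels, with medians over all genes between 5.71 and 5.79. Of the 59 Wnt genes, 34 had a mean over the arrays of at least 5.77, the median of such means over all genes. The rest were dimmer, among them Wnt1, Lgr5, Wif1, Sp5, Wnt3, Wnt10a, Nkd1 and Fzd10. Whether these dimmer genes were expressed was not tested, so their differences may not be changes of expression. Arrays with the same replicate number deviated together from their group means, with correlations across genes, which are not independent, of 0.56 between VPA and untreated, 0.57 between VPA and NaBu and 0.69 between NaBu and untreated arrays, so each difference is given within replicate 1, within replicate 2 and as the mean. Tests were made with limma over all 19938 genes with Benjamini-Hochberg adjustment at 0.05. They were made first with group means only and then with the replicate number as a block. With 2 arrays in a group, an exact two-sided permutation test of a single gene cannot give a p under 0.333.

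No Wnt gene passed the test in any treatment comparison. After limma's adjustment over all genes, 0 of 59 Wnt genes were called in VPA against untreated, in NaBu against untreated or in VPA against NaBu, with or without the replicate block, and 0% of all genes were called in each. Without adjustment, 1 Wnt gene (1.69%) had p under 0.05 for VPA against untreated, beside 4.92% of all genes, and 0 had it for NaBu against untreated and for VPA against NaBu, beside 1.56% and 3.63% of all genes. With the block these counts were 9 (15.3%) beside 13.2% of all genes for VPA, 1 (1.69%) beside 4.59% for NaBu, and 8 (13.6%) beside 10.8% for VPA against NaBu. The shares of Wnt genes lay on both sides of those of all genes.

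**Figure D1:**
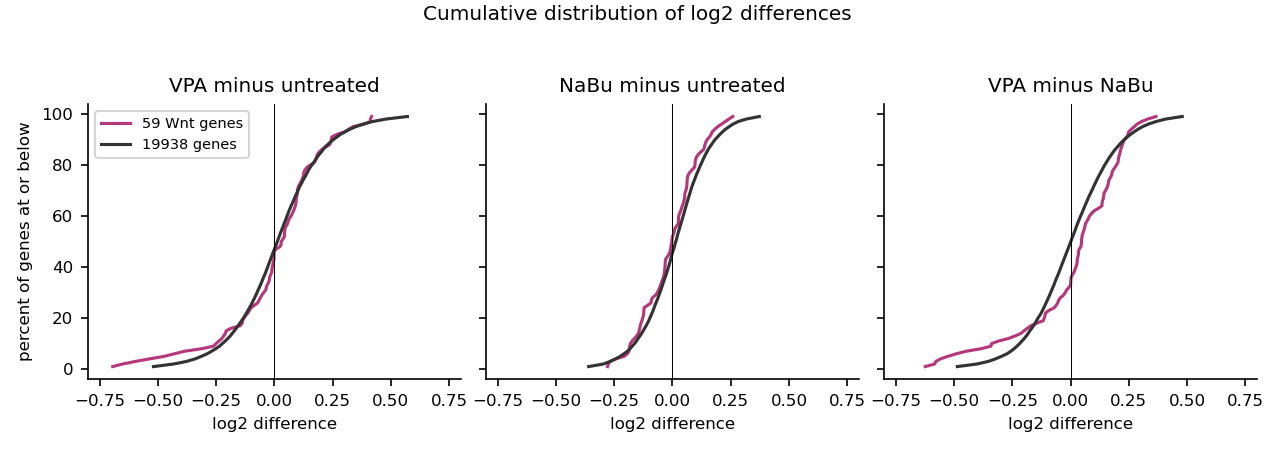
Cumulative distribution of the mean log2 difference for 59 Wnt genes and for 19938 genes in 3 comparisons; the x axis is the log2 difference and the y axis the percent of genes at or below it. The Wnt genes follow all genes closely for VPA against untreated except for a lower tail that holds Sfrp4 at -0.73, Notum at -0.67, Tcf7l1 at -0.57 and Porcn at -0.46.

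With VPA, the Wnt genes as a group were centred near all genes: 31 of 59 lay above 0 and 28 below, with a median difference of 0.03 beside 0.01 for all genes. That median was -0.01 when each array was centred on its own median. The median was -0.04 within replicate 1 and 0.06 within replicate 2. The individual differences ran from -0.73 for Sfrp4 to 0.42 for Fzd1. Both VPA arrays lay above both untreated arrays for 13 Wnt genes (22.0%) beside 19.1% of all genes, and below for 9 (15.3%) beside 15.6%. The sign was positive within both replicates for 18 (30.5%) beside 32.0% of all genes, and negative within both for 16 (27.1%) beside 28.0%.

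**Figure D2:**
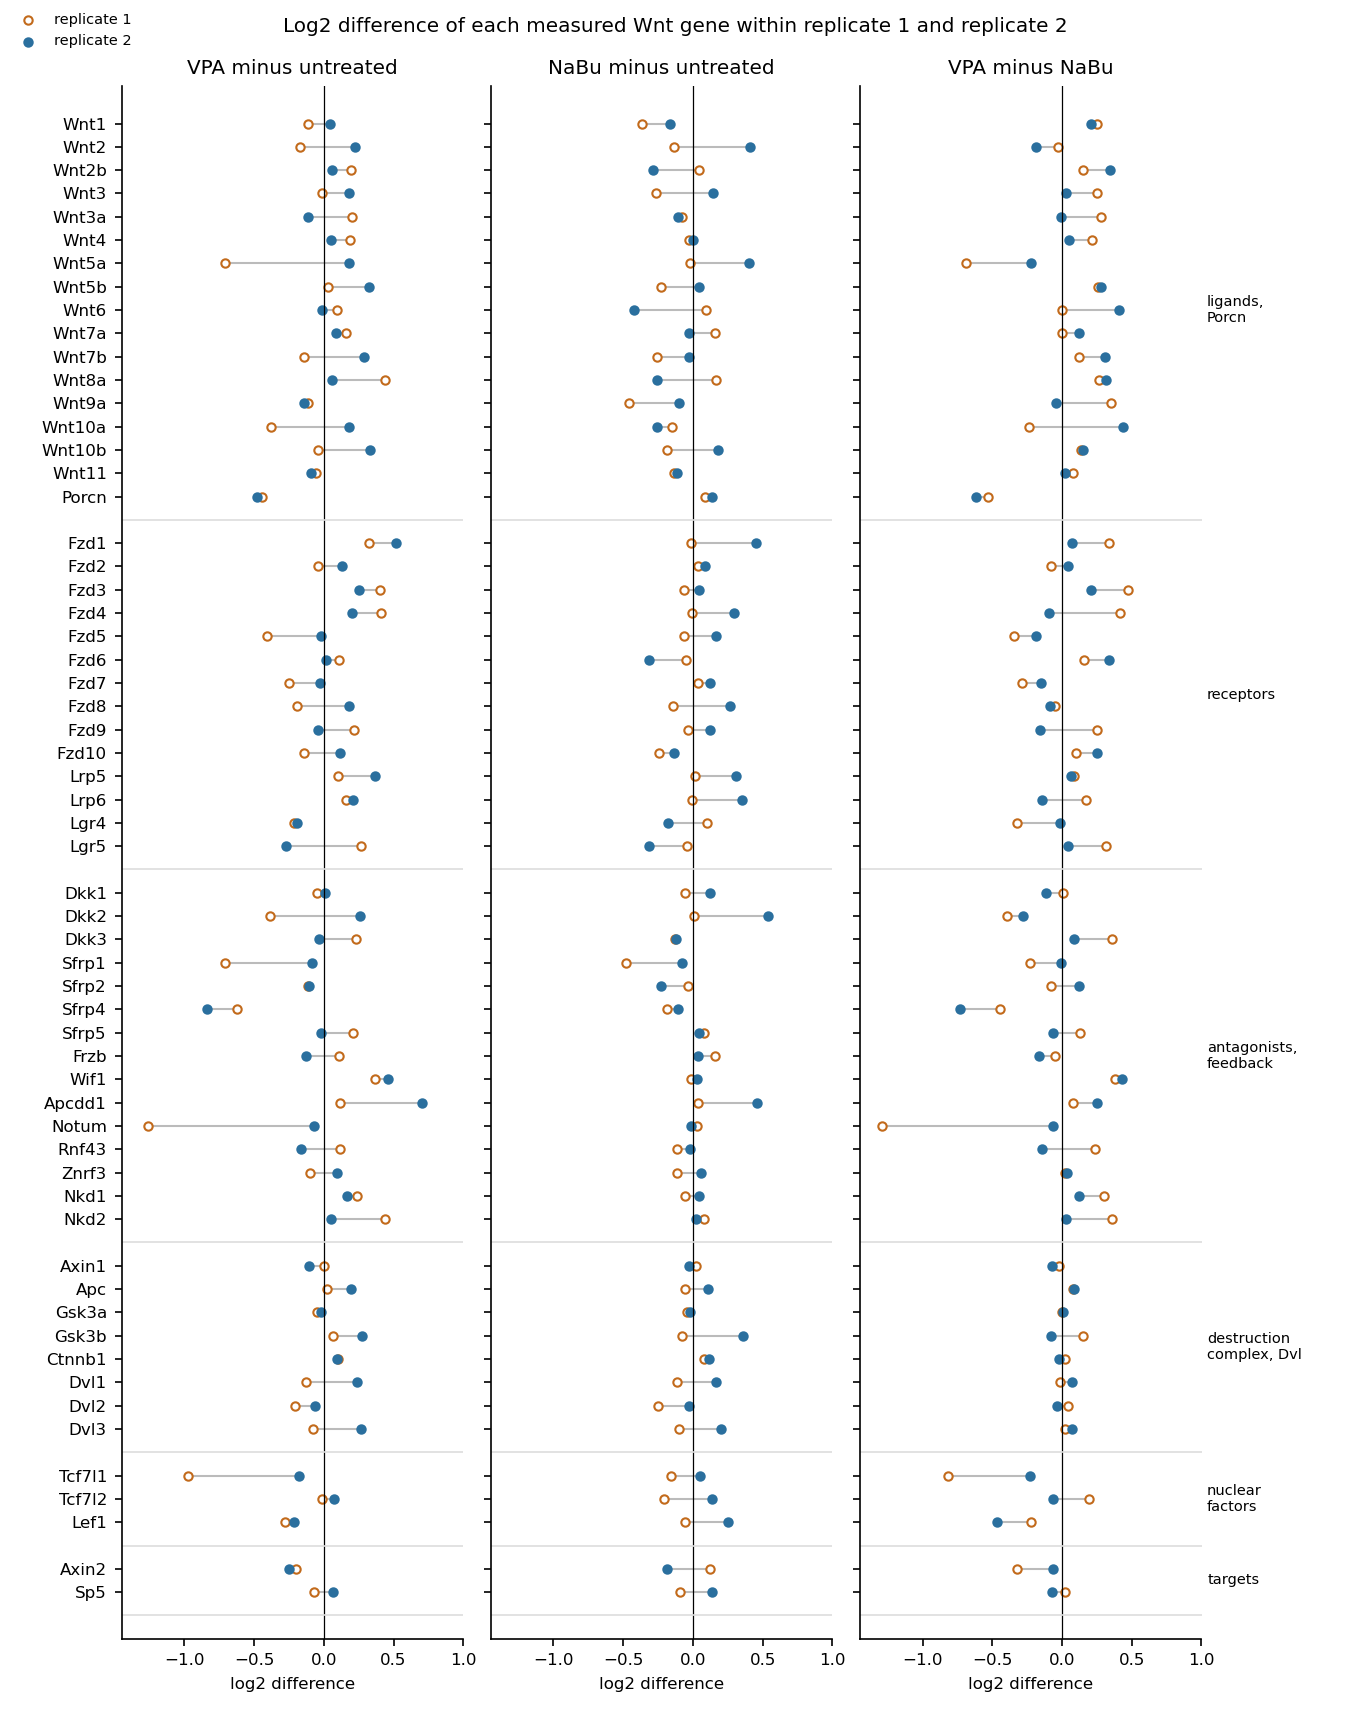
Log2 difference of each of the 59 measured Wnt genes within replicate 1 (open) and replicate 2 (filled), grouped by role, for VPA minus untreated, NaBu minus untreated and VPA minus NaBu. For Notum and Tcf7l1 the VPA difference within replicate 1, at -1.26 and -0.97, is far larger than that within replicate 2, at -0.07 and -0.18, whereas Porcn and Sfrp4 have similar differences in both.

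Among the ligands, the 16 Wnt genes differed little on average with VPA, and the most negative value belonged to Porcn, the acyltransferase of the endoplasmic reticulum that attaches the lipid to Wnt proteins. Porcn (probeset 10603492) had 7.46 and 8.72 in VPA cells, 7.99 and 9.34 in NaBu cells, and 7.90 and 9.20 in untreated cells. In each replicate the VPA array was the lowest of the 3, yet replicate 2 stood so far above replicate 1 that the groups overlapped. The mean VPA difference was -0.46, with a 95% interval of -2.03 to 1.104 without the block and -0.71 to -0.22 with it; limma's adjusted p was 0.985 without the block and 0.202 with it. Wnt5a, a ligand mostly linked to signalling without beta-catenin, had 4.94 and 6.19 in VPA cells, 5.63 and 6.42 in NaBu cells, and 5.65 and 6.01 in untreated cells. Its VPA difference had opposite signs in the 2 replicates, -0.71 and 0.18. Wnt3, a ligand that mouse embryos need to form the primitive streak, had 4.81 and 4.99 in VPA cells and 4.83 and 4.81 in untreated cells, which overlapped. Wnt2b, Wnt4, Wnt5b and Wnt8a were higher on both VPA arrays than on both untreated arrays, by 0.12 to 0.25 on average. For Wnt2b and Wnt5b, VPA replicate 2 and untreated replicate 1 were level to the decimals given here, at 4.11 and 5.59. Wnt11 was lower on both VPA arrays, with a mean difference of -0.07.

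Of the receptors, Fzd1 had the largest difference with VPA. Fzd1 (probeset 10527936), a Frizzled receptor, had 6.63 and 6.61 in VPA cells, 6.29 and 6.54 in NaBu cells, and 6.30 and 6.09 in untreated cells. Both VPA arrays were above all 4 others, and the means were 6.62 ± 0.01 in VPA cells and 6.19 ± 0.15 in untreated cells (SD, n = 2 each). The difference of 0.42 had a 95% interval of 0.08 to 0.77 without the block and 0.12 to 0.73 with it, and limma's adjusted p was 0.964 and 0.266. Fzd1 was the only Wnt gene with an unadjusted p under 0.05 by limma in the VPA comparison without the block. That was 1.69% of the Wnt genes, beside 4.92% of all genes.

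Fzd3, best known for its part in planar cell polarity and axon guidance, had 7.18 and 6.83 in VPA cells, 6.71 and 6.62 in NaBu cells, and 6.77 and 6.57 in untreated cells. The VPA arrays again lay above the other 4, by 0.33 on average over untreated cells, with an interval of -0.06 to 0.71 without the block and 0.06 to 0.60 with it. The co-receptors Lrp5 and Lrp6, which carry the signal together with a Frizzled, were higher on both VPA arrays than on both untreated arrays: Lrp5 had 8.19 and 8.32 in VPA cells against 8.08 and 7.94 in untreated cells. Lrp6 had 8.83 and 8.69 in VPA cells against 8.67 and 8.48 in untreated cells. Their differences of 0.24 and 0.19 both had intervals that included 0. Fzd7, the Frizzled most often tied to stem cell self-renewal, had 9.02 and 9.35 in VPA cells, 9.31 and 9.50 in NaBu cells, and 9.27 and 9.38 in untreated cells, so the groups overlapped. Fzd5 and Lgr4, an R-spondin receptor, were lower on both VPA arrays, each by 0.21 on average, whereas Lgr5, its relative and itself a Wnt target, had 4.004 and 3.58 in VPA cells against 3.73 and 3.86 in untreated cells.

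The antagonists held 5 of the 8 Wnt genes with the largest VPA differences: Sfrp4, Notum and Sfrp1 had lower values and Wif1 and Apcdd1 higher ones. Sfrp4 (probeset 10403834), a secreted protein with a Frizzled-like domain that binds Wnts, had 6.19 and 5.44 in VPA cells, 6.63 and 6.17 in NaBu cells, and 6.81 and 6.28 in untreated cells. Both VPA arrays were below both untreated arrays, and the difference was -0.63 within replicate 1 and -0.84 within replicate 2. The mean of -0.73 had an interval of -1.48 to 0.01 without the block and -1.004 to -0.46 with it. Its adjusted p by limma was 0.964 without the block and 0.201 with it. The value 0.201 was the smallest adjusted p in that fit, but other genes shared it, Tle4 and Kremen2 among them.

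Notum (probeset 10393904), a secreted esterase that removes the lipid from Wnts, had 6.18 and 6.08 in VPA cells, 7.47 and 6.15 in NaBu cells, and 7.44 and 6.16 in untreated cells. Both replicate 2 arrays without VPA were already at the level of the VPA arrays, so that the VPA difference was -1.26 within replicate 1 and -0.07 within replicate 2. Its mean difference of -0.67 had an interval of -1.95 to 0.62 without the block and -1.29 to -0.05 with it. With VPA replicate 2 left out and the block kept, limma gave Notum a difference of -1.27 with adjusted p 0.00422. That fit has 1 VPA array, assumed to vary like the NaBu and untreated arrays, and 1 residual degree of freedom, and it called 2 of 59 Wnt genes, Notum and Tcf7l1 (3.39%), beside 3.88% of all genes. Without the block, the difference was -1.31 with untreated replicate 2 left out and -0.03 with untreated replicate 1 left out.

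Sfrp1, another secreted Frizzled-related protein, had 7.44 and 7.29 in VPA cells, 7.67 and 7.29 in NaBu cells, and 8.15 and 7.37 in untreated cells. Untreated replicate 1 was the highest array, and the difference of -0.39 was -0.71 within replicate 1 and -0.08 within replicate 2. Wif1, which binds Wnts outside the cell, had 5.13 and 4.67 in VPA cells, 4.75 and 4.23 in NaBu cells, and 4.77 and 4.21 in untreated cells. The VPA array was the highest of the 3 in each replicate, by 0.36 and 0.46 over the untreated array, with a mean interval of -0.25 to 1.08 without the block and 0.17 to 0.66 with it. Apcdd1, a membrane-bound inhibitor that binds Wnt and Lrp proteins, had 7.08 and 7.001 in VPA cells, 7.002 and 6.75 in NaBu cells, and 6.97 and 6.30 in untreated cells. Its difference of 0.41 came mainly from a low untreated replicate 2. The feedback inhibitor Nkd1, a Dishevelled-binding protein and Wnt target, had 5.56 and 5.68 in VPA cells against 5.32 and 5.51 in untreated cells, which did not overlap, and the interval of its difference of 0.21 included 0.

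**Figure D3:**
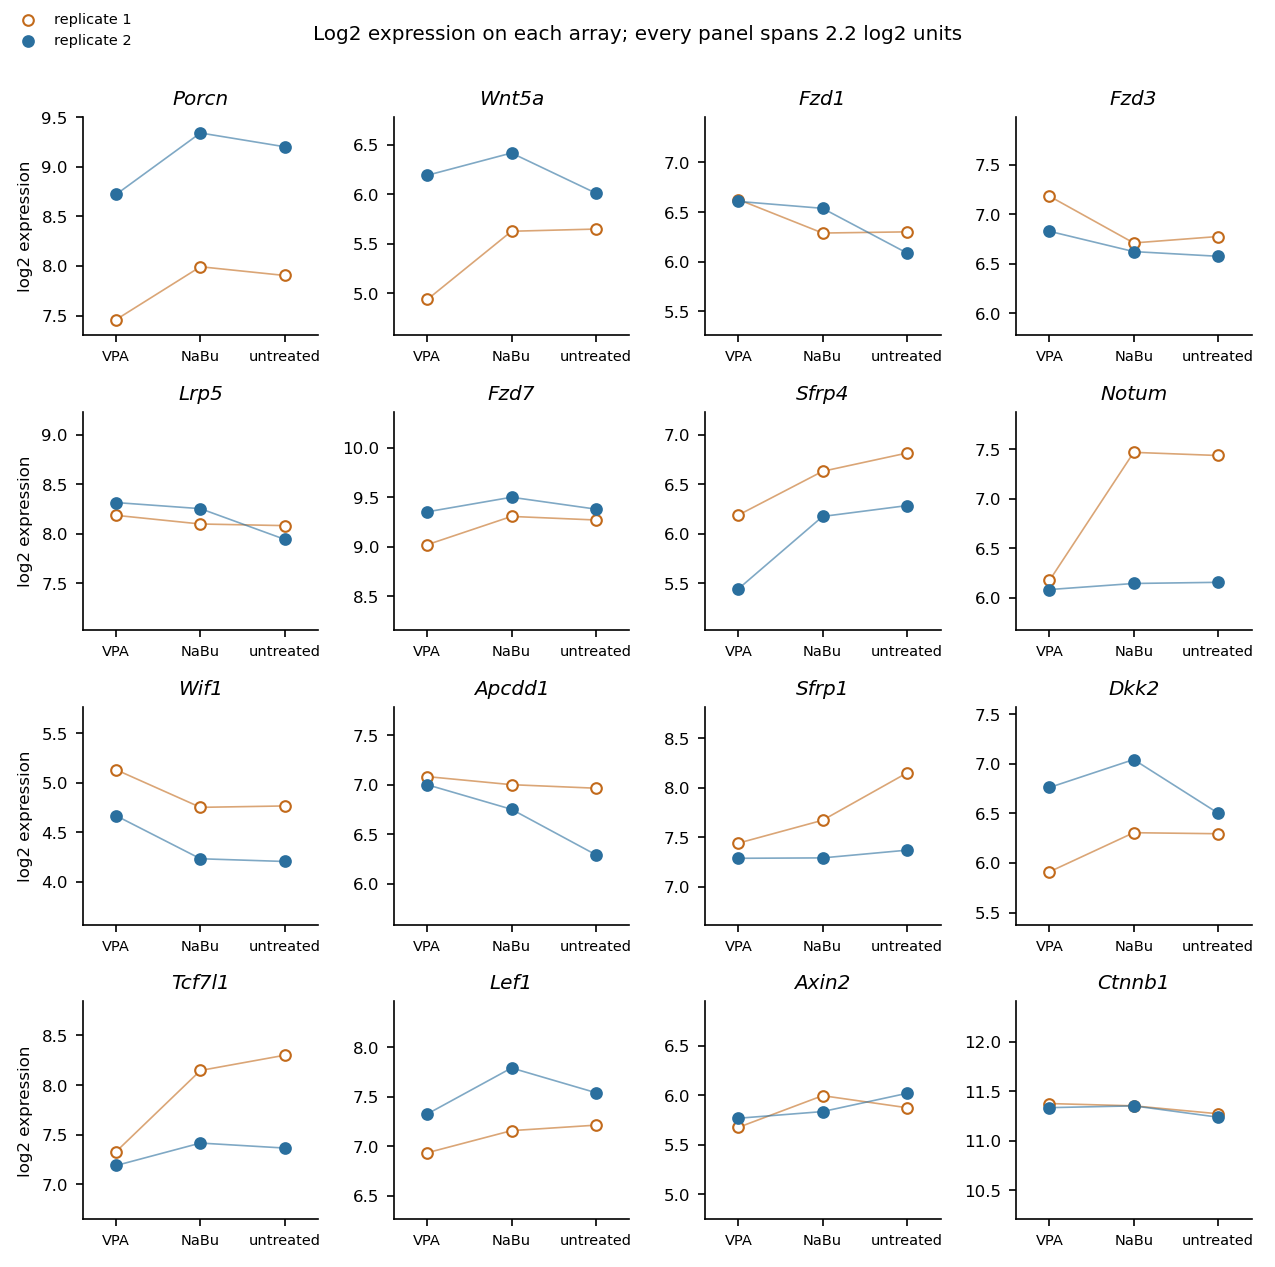
Log2 expression of 16 Wnt genes on each array for VPA, NaBu and untreated cells, with replicate 1 open and replicate 2 filled; every panel spans the same range. Porcn, Wnt5a, Dkk2 and Lef1 are higher in replicate 2 in all 3 conditions, and Notum and Tcf7l1 are high on the NaBu and untreated arrays of replicate 1.

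The 8 genes of the destruction complex, beta-catenin and Dishevelled differed little with VPA. Ctnnb1, the gene of beta-catenin, had 11.38 and 11.33 in VPA cells, 11.35 and 11.35 in NaBu cells, and 11.27 and 11.24 in untreated cells. Both treated groups lay above both untreated arrays, by 0.10 each, and both intervals included 0. Gsk3b, the kinase that marks beta-catenin for degradation, had 8.20 and 8.26 in VPA cells, 8.05 and 8.35 in NaBu cells, and 8.13 and 7.99 in untreated cells. Its VPA difference was 0.17, and its relative Gsk3a differed by -0.03. Over this role the VPA differences ran from -0.14 for Dvl2 to 0.17 for Gsk3b.

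Tcf7l1 had the largest difference among the 3 nuclear factors. Tcf7l1 (probeset 10545458) had 7.33 and 7.19 in VPA cells, 8.15 and 7.41 in NaBu cells, and 8.30 and 7.36 in untreated cells. Both VPA arrays were the lowest of the 6, yet the difference was -0.97 within replicate 1 and -0.18 within replicate 2. The mean of -0.57 had an interval of -1.43 to 0.29 without the block and -0.99 to -0.16 with it, and limma's adjusted p was 0.964 and 0.263. In the fit without VPA replicate 2 described for Notum, with its 1 VPA array and 3.88% of all genes called, Tcf7l1 was at -0.92 with adjusted p 0.0139. Without the block, the difference was -1.04 with untreated replicate 2 left out and -0.11 with untreated replicate 1 left out. Lef1, its activating relative, had 6.94 and 7.33 in VPA cells, 7.16 and 7.79 in NaBu cells, and 7.21 and 7.54 in untreated cells. The VPA array was the lowest in each replicate, by 0.28 and 0.21 below the untreated array, and the groups overlapped.

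Of the target genes, Axin2, a negative feedback regulator used widely as a readout of beta-catenin signalling, had 5.68 and 5.77 in VPA cells, 5.995 and 5.83 in NaBu cells, and 5.87 and 6.02 in untreated cells. Both VPA arrays were below the other 4, with a mean difference of -0.22 from untreated cells and an interval of -0.53 to 0.08 without the block and -0.50 to 0.05 with it. Sp5, a zinc-finger factor directly activated by the pathway, had 4.67 and 4.65 in VPA cells, 4.65 and 4.73 in NaBu cells, and 4.74 and 4.59 in untreated cells. These values overlapped, and the VPA difference was -0.0015 with an interval of -0.29 to 0.28.

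The promoters of Sp5, a target, and Tcf7l1, the nuclear factor with the largest VPA difference, are shown to set a target promoter that holds a Tcf and Lef motif beside the promoter of a Tcf gene. Both are RefSeq windows of 300 bases on GRCm38.p6, 250 before the annotated start and 50 after it, read on the gene's strand; Sp5 is at chr2:70474673-70474972 on the plus strand and Tcf7l1 at chr6:72788996-72789295 on the minus strand. Capitals mark a match to the motif CTTTGAA or CTTTGAT on either strand. These motifs differ in the last base, so no match counts for both.
Sp5: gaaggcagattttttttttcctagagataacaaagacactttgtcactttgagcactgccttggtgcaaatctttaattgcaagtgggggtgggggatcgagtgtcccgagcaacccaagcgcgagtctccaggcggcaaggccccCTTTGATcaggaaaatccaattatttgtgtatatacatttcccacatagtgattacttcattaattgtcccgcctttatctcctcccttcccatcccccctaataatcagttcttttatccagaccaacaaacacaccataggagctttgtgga
Tcf7l1: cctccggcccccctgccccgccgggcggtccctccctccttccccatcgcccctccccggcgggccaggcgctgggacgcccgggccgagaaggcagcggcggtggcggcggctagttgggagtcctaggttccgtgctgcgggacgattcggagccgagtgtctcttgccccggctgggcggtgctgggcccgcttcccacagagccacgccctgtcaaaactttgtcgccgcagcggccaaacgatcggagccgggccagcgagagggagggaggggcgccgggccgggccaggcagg
Sp5 held 1 match, whose first base lay at position -104 from the start, and 45.0% of the window was G or C. The letters of either motif were not in the Tcf7l1 window, of which 75.3% was G or C. Of the 39 Wnt genes with an entry in the promoter table, 5 (12.8%) had a match, namely Dkk1, Gsk3a, Sp5, Wnt11 and Wnt5b, beside 9.88% of 27025 genes with an entry. A match in letters is a description of the window and not a binding site.

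The NaBu differences share the untreated arrays with the VPA differences. The Wnt genes ran from -0.28 for Wnt9a to 0.28 for Dkk2, with a median of -0.0027 beside 0.01 for all genes, and 28 lay above 0 and 31 below. Both NaBu arrays were above both untreated arrays for 3 Wnt genes, Lrp5, Nkd2 and Ctnnb1 (5.08%), beside 12.7% of all genes, and below for 9 (15.3%) beside 11.2%, with Fzd6 among the 9 only past the decimals given here. The sign was positive within both replicates for 10 (16.9%) beside 29.1% of all genes, and negative within both for 17 (28.8%) beside 23.1%. In the ligand role 13 of 17 genes were below 0, beside 9109 of 19938 genes in all. The ligand median was -0.09, and 12 of 17 were below 0 after quantile normalisation.

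Among ligands, Wnt9a had 5.69 and 5.90 in NaBu cells and 6.15 and 5.999 in untreated cells, a difference of -0.28 with a 95% interval of -0.62 to 0.06. Wnt1, a founding member of the family, had 3.26 and 3.40 in NaBu cells and 3.63 and 3.56 in untreated cells. Neither gene overlapped between the groups. Wnt1 differed by -0.27, with an interval of -0.55 to 0.02 without the block and -0.52 to -0.01 with it, and was the 1 Wnt gene with an unadjusted p under 0.05 with the block; limma's adjusted p was 1.00 and 0.994. Wnt10a had 5.23 and 4.68 in NaBu cells and 5.38 and 4.93 in untreated cells, which overlapped.

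The receptor Fzd10 was lower on both NaBu arrays than on both untreated arrays, and Fzd6 had NaBu replicate 1 level with untreated replicate 2. Fzd6 had 7.03 and 6.71 in NaBu cells against 7.08 and 7.03 in untreated cells. Fzd10 had 5.64 and 5.54 in NaBu cells against 5.89 and 5.68 in untreated cells. Their differences of -0.18 and -0.19 had intervals that included 0. Lgr5 had 3.69 and 3.54 in NaBu cells against 3.73 and 3.86 in untreated cells, a difference of -0.18 with an interval of -0.59 to 0.23.

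Among antagonists, Dkk2, a secreted ligand of Lrp5 and Lrp6, had 6.31 and 7.04 in NaBu cells and 6.29 and 6.50 in untreated cells. The difference of 0.28 lay in replicate 2, where it was 0.54, beside 0.01 in replicate 1. Sfrp1 differed by -0.28, with -0.48 in replicate 1 and -0.08 in replicate 2, and Apcdd1 by 0.25, with 0.04 and 0.46. Notum had almost the same values in NaBu and untreated cells in each replicate, differing by 0.03 in replicate 1 and -0.01 in replicate 2. Its interval of -1.28 to 1.30 without the block and -0.61 to 0.63 with it still covers large changes.

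The compounds were given at different doses, 0.5 mM VPA and 0.2 mM NaBu, so a direct comparison of their arrays also compares doses. In VPA against NaBu cells, 40 of 59 Wnt genes lay above 0 and 19 below, with a median of 0.05 beside 0.0010 for all genes; after centring each array on its median the split was 31 to 28, with a median of 0.01 beside -0.03 for all genes. Both VPA arrays lay above both NaBu arrays for 11 Wnt genes (18.6%) beside 16.0% of all genes, and below for 3, Fzd5, Tcf7l1 and Axin2 (5.08%), beside 14.6%. The sign was positive within both replicates for 24 (40.7%) beside 27.5% of all genes, and negative within both for 16 (27.1%) beside 28.6%. Of the 17 genes in the ligand role, 14 were above 0 under each scaling tried, and the 3 below were Wnt2, Wnt5a and Porcn. On the deposited values 10016 of 19938 genes in all were above 0. The ligand count shares the NaBu arrays with that for NaBu against untreated cells, so they are not separate observations.

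The largest differences between the compounds were those of Notum at -0.68, Sfrp4 at -0.59, Porcn at -0.58, Tcf7l1 at -0.52 and Wnt5a at -0.46. With the block the intervals were -1.30 to -0.06 for Notum, -0.86 to -0.31 for Sfrp4, -0.82 to -0.33 for Porcn, -0.94 to -0.11 for Tcf7l1 and -0.89 to -0.02 for Wnt5a, and without it all 5 included 0. Lef1 was lower in VPA cells than in NaBu cells in both replicates, by 0.22 and 0.46. Wif1 and Fzd3 were higher, by 0.41 and 0.34 on average. Limma's adjusted p with the block was 0.362 for Sfrp4, Porcn and Wif1, the smallest among the Wnt genes. Leaving out VPA replicate 2 with the block kept, limma called Notum, at -1.28, and Tcf7l1, at -0.87, with adjusted p of 0.0079 and 0.0279. These are 3.39% of the Wnt genes, beside 1.82% of all genes, and the 1 VPA array left was again assumed to vary like the other groups.

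The replicate number was the contrast in which Wnt genes passed the test. This comparison of the 3 replicate 2 arrays with the 3 replicate 1 arrays, with treatment in the model, was added after seeing the data. Limma called 9 of 59 Wnt genes at adjusted p under 0.05: Porcn, Wnt5a, Dkk2, Dkk3 and Lef1 were higher in replicate 2 (8.47% of Wnt genes, beside 6.04% of all genes), and Notum, Tcf7l1, Sfrp4 and Wif1 were lower (6.78%, beside 5.56%). All 3 replicate 2 arrays lay above all 3 replicate 1 arrays for 10 Wnt genes (16.9%) beside 13.5% of all genes, and below for 7 (11.9%) beside 13.7%.

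Porcn differed most evenly, by 1.26 in VPA cells, 1.35 in NaBu cells and 1.30 in untreated cells, replicate 2 minus replicate 1. Its mean of 1.30 had a 95% interval of 1.103 to 1.50 and limma's adjusted p was 0.000239. Wnt5a was higher in replicate 2 by 0.80 on average, but by 1.25 in VPA cells, 0.79 in NaBu cells and 0.36 in untreated cells, with adjusted p 0.0162. Dkk2 was higher by 0.60 and Dkk3, a divergent Dickkopf protein, by 0.37, with adjusted p of 0.0252 and 0.0439. Dkk3 had 6.33 and 6.53 in VPA cells, 5.97 and 6.44 in NaBu cells, and 6.10 and 6.56 in untreated cells. Lef1 was higher by 0.45 with adjusted p 0.0245.

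Of the genes lower in replicate 2, Sfrp4 differed by -0.58 and Wif1 by -0.51, with similar values in all 3 conditions and adjusted p of 0.00978 and 0.0103. Notum and Tcf7l1 did not have this evenness. Notum differed by -0.09 in VPA cells, -1.32 in NaBu cells and -1.28 in untreated cells, and Tcf7l1 by -0.14, -0.73 and -0.94 in the same order; both had an adjusted p of 0.0367. Whether the replicate difference depends on VPA was not tested. Porcn and Sfrp4 stayed called when any 1 array was left out. Leaving out an array also takes the other array of its condition out of this estimate, which then rests on 2 conditions with 1 residual degree of freedom. Leaving out either NaBu array ended the other 7 calls, with differences of 0.81 for Wnt5a, 0.53 for Dkk2, 0.33 for Dkk3, 0.36 for Lef1, -0.51 for Wif1, -0.69 for Notum and -0.54 for Tcf7l1. Leaving out either untreated array ended those of Dkk3, at 0.33, Notum, at -0.71, and Tcf7l1, at -0.44. Leaving out either VPA array ended that of Dkk2, at 0.47.

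**Figure D4:**
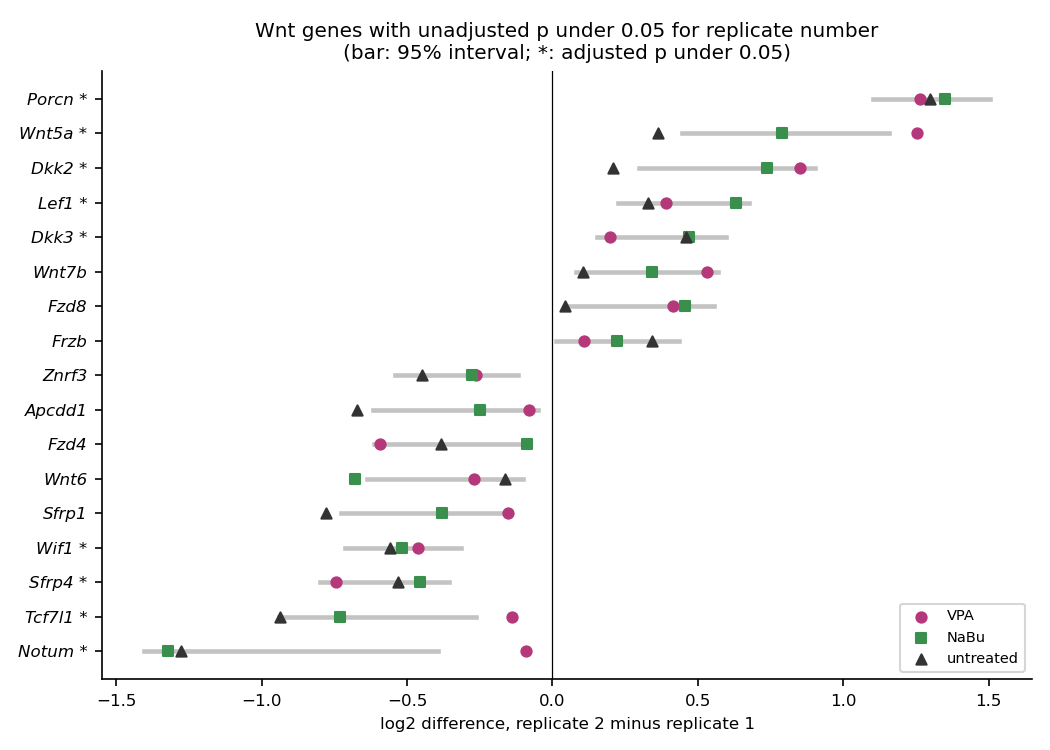
Log2 difference of replicate 2 minus replicate 1 for the 17 Wnt genes with unadjusted p under 0.05, by condition (symbols), with the 95% interval of the mean (bars); an asterisk marks an adjusted p under 0.05. Porcn lies at 1.30 with its 3 conditions together, whereas Notum and Tcf7l1 lie near 0 in VPA cells and between -0.73 and -1.32 in NaBu and untreated cells.

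Marker lists were followed in the same contrasts. Of 29 feeder fibroblast markers measured, such as collagens and decorin, 26 were higher in replicate 2 and 14 were called higher, 0 lower. Their log2 summed level was 13.21 and 14.02 in VPA cells, 13.40 and 14.07 in NaBu cells, and 13.45 and 13.84 in untreated cells. The fibroblast gene Dcn, among those that differed most, had 7.15 and 9.84, 8.003 and 10.10, and 7.73 and 9.81 in the same order. Sparc, 1 of the 3 that were lower in replicate 2, had 9.82 and 9.89, 9.87 and 9.85, and 9.999 and 9.85. The median over the 29 feeder markers was 0.40, replicate 2 minus replicate 1. In bulk RNA of mixed cultures, more fibroblasts and more RNA of these genes per cell cannot be told apart. The lowest value on each array was 1.73 to 1.82, so a feeder marker listed above 0 was not thereby detected. The feeder markers Fap and Lum had 2.67 to 3.22 and 2.93 to 3.49 over the 6 arrays. With NaBu, 24 of the 29 were above 0 against untreated cells, 16 of them within both replicates, with a median difference of 0.13, and in VPA against NaBu cells 20 were below 0, 11 of them within both, with a median of -0.09. With VPA against untreated cells 16 were above 0 and 13 below, with a median of 0.01, and limma called 0 of them in any of the 3 treatment comparisons. The part of feeder RNA in the replicate differences of Wnt5a, Dkk2, Dkk3 and other Wnt genes, and in the NaBu differences, was not tested.

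Of 12 stem cell markers, 11 were below 0 with VPA within both replicates, with a median difference of -0.30, and 0 passed limma's adjusted test. In VPA against NaBu cells 10 were below 0 within both replicates, with a median of -0.30, and with NaBu against untreated cells 9 were below 0, 5 of them within both, with a median of -0.05. Their log2 summed level was 14.61 and 14.53 in VPA cells, 14.86 and 14.65 in NaBu cells, and 14.89 and 14.72 in untreated cells. The 2 highest arrays, replicate 1 of untreated and of NaBu cells, were also the 2 highest for Tcf7l1, Notum, Sfrp4 and Sfrp1. They were not for Porcn, Fzd1, Wif1 and Apcdd1, the others of the 8 Wnt genes with the largest VPA differences. The first 4 were picked for lower values with VPA, which by itself makes VPA arrays unlikely to be the highest. The share of all genes with this order was not counted. Pou5f1, the gene of Oct4, had 11.12 and 11.13 in VPA cells, 11.68 and 11.56 in NaBu cells, and 11.90 and 11.63 in untreated cells, so this defining marker of the labelled cell type was present on every array. The part of stem cell RNA content in the VPA differences was not tested. Markers of primitive streak and neural cells, 4 and 5 genes, had mean levels of 4.88 to 5.11 and 4.85 to 5.16 on the 6 arrays. With VPA, 4 neural markers were above 0 and 1 below, each within both replicates, with a median difference of 0.13. The 1 below was Sox1, with 6.71 and 6.79 in VPA cells, 6.60 and 6.36 in NaBu cells, and 7.05 and 6.79 in untreated cells. Both NaBu arrays of Sox1 were below both untreated arrays. Of the 4 above, Zic1 and Neurog2 were dim, at 3.73 to 3.95 and 3.70 to 3.95 over the 6 arrays. In VPA against NaBu cells 5 neural markers were above 0, with a median of 0.15, and with NaBu 3 were. The primitive streak markers split 2 and 2 with VPA. In both lists 0 passed limma's adjusted test.

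**Figure D5:**
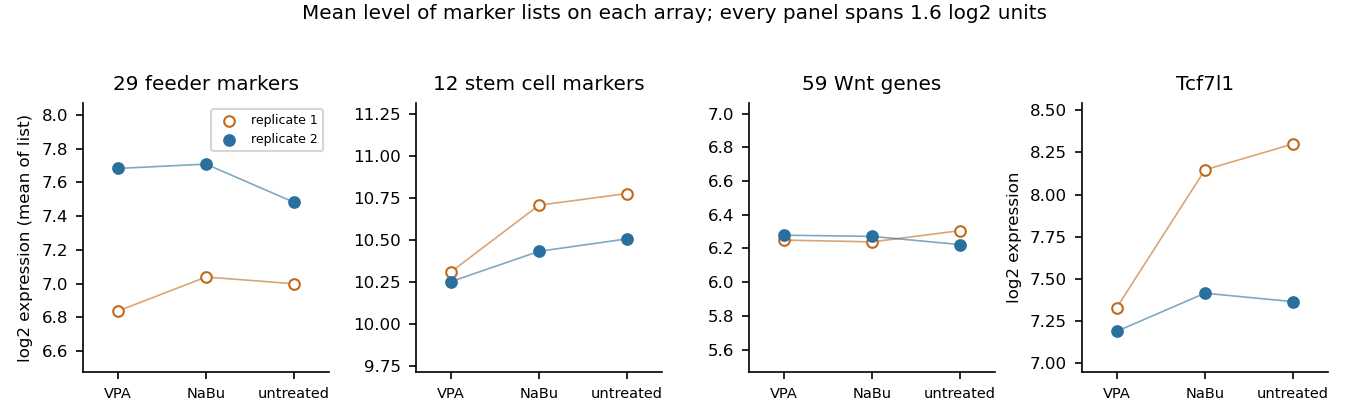
Mean log2 level on each array of 29 feeder fibroblast markers, 12 stem cell markers, 59 Wnt genes and, as a single gene, Tcf7l1, for VPA, NaBu and untreated cells with replicate 1 open and replicate 2 filled. Feeder markers are higher in replicate 2 in all 3 conditions, stem cell markers are highest in replicate 1 of NaBu and untreated cells, and the mean of the Wnt genes stays between 6.22 and 6.31.

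Beyond the 59 genes, 68 other genes of the pathway and 47 of 50 reported target genes were measured, and 0 passed the adjusted test in any of the 3 comparisons. Both lists were chosen with earlier results of these data known. With VPA, 43 of the 68 pathway genes were above 0, beside 10567 of 19938 genes in all. Of the 68, 34 were above 0 within both replicates, beside 32.0% of all genes, and 15 were below 0 within both, beside 28.0%. The median was 0.07, beside 0.01 for all genes. Dkkl1, a Dickkopf-like gene, had 7.35 and 7.11 in VPA cells, 6.11 and 6.77 in NaBu cells, and 5.24 and 6.59 in untreated cells. Both VPA arrays lay above the other 4, and the difference of 1.31 had an interval of 0.25 to 2.38 without the block, with limma's adjusted p at 0.964 and, with the block, 0.202. Kremen2, a Dickkopf receptor that removes Lrp6 from the membrane, had 6.18 and 6.26 in VPA cells, 5.70 and 6.01 in NaBu cells, and 5.67 and 5.61 in untreated cells. The Groucho co-repressor Tle4, which binds Tcf proteins, had 8.64 and 8.69 in VPA cells, 9.26 and 9.06 in NaBu cells, and 9.34 and 9.09 in untreated cells. Tle4 and Kremen2 had separate VPA and untreated arrays, with differences of -0.55 (interval -0.90 to -0.21) and 0.58 (0.24 to 0.93) and adjusted p of 0.964 by limma without the block and 0.201 with it.

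Among the reported targets, 25 of 47 were above 0 with VPA, 13 of them within both replicates, and 17 were below 0 within both, with a median of 0.01. The shares of all genes were again 32.0% above 0 and 28.0% below 0 within both. Ccnd1, the gene of cyclin D1, had 8.78 and 9.19 in VPA cells, 10.12 and 9.54 in NaBu cells, and 10.17 and 9.47 in untreated cells. Both VPA arrays were the lowest of the 6, and the VPA difference of -0.84 had an interval of -1.57 to -0.11 without the block and -1.39 to -0.29 with it. Mitf, a transcription factor of pigment cells, had 5.85 and 6.12 in VPA cells against 7.01 and 6.30 in untreated cells, and Mmp14, a membrane metalloprotease, had 7.32 and 8.65 in VPA cells against 8.40 and 8.68 in untreated cells. As with Tcf7l1, these differences were larger in replicate 1, at -1.40 for Ccnd1, -1.16 for Mitf and -1.08 for Mmp14, than in replicate 2, at -0.28, -0.18 and -0.02. With NaBu, the homeobox gene Cdx1 had 6.11 and 5.74 in NaBu cells against 6.30 and 6.32 in untreated cells, a difference of -0.39 with an interval of -0.76 to -0.03 and limma's adjusted p at 1.00 without the block.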

How the data were processed

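Total RNA of 6 samples was measured on an Affymetrix mouse gene array. The deposited values are log2 expression per probeset. Per the submitters' processing notes, the authors used RMA and Affymetrix Expression Console 1.1. The scale was checked on the values; its further settings were not stated. Of 35556 probesets, 23410 are in the platform annotation; 21789 carry 1 symbol, 1621 several and 12146 are unlisted, and only the first kind was used. The highest-mean probeset represented each of 19938 genes, of which 999 had more than 1.

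Groups came from the labels. Differences were fitted over all genes with limma 3.58.1 in R 4.3.3, with 1 mean per group, moderated variances without an intensity trend, 95% intervals and Benjamini-Hochberg adjustment over all genes at 0.05. The fit left 3 residual degrees of freedom, and 2 with the replicate number as a block. The number was taken to pair the arrays from the data, since same-numbered arrays deviated together in all 3 pairs of groups (0.56 to 0.69); with 2 arrays per group the value is the same for both numbers, and the labels do not say what the number marks. The scripts were tested on simulated data. The number of arrays limits the precision.

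Named genes were the 8 Wnt genes with the largest differences in each comparison, and the 3 largest of each further list. Both rankings took only genes whose difference had the same sign within both replicates. The NaBu ranking so passed over Fzd1, at 0.22, and Wnt5a, at 0.19. Wnt genes called for replicate number and 14 measured genes of central role were also named. The Wnt genes and all lists were chosen with earlier results of these data known. Alternatives were the block, median centring, quantile normalisation, a filter on genes with a mean under 5.77, the mean of a gene's probesets, an intensity trend and leaving out each array. Promoters came from RefSeq on GRCm38.p6, with 39 of 59 Wnt genes matched by symbol.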

Additional observations from a re-analysis of the deposited data

How the results depend on the processing

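In the 3 treatment comparisons, 0 Wnt genes were called with limma under the replicate block, median centring, quantile normalisation, the filter on dim genes, the mean of probesets and the intensity trend, and 0 of all genes were. The replicate block, with the arrays paired by number, moved the smallest adjusted p of a Wnt gene to 0.201 for VPA, 0.994 for NaBu and 0.362 for VPA against NaBu, and changed no call. When each array was left out in turn, with and without the block, between 0 and 2 Wnt genes were called for VPA against untreated and between 0 and 2 for VPA against NaBu, in both cases Notum and Tcf7l1 with VPA replicate 2 left out. Among all genes 0 to 774 were then called for VPA, of which 774 with VPA replicate 2 and 7 with untreated replicate 2 left out, 0 to 1 for NaBu and 0 to 363 for VPA against NaBu. The median difference of the Wnt genes ranged from -0.0458 to 0.0635 for VPA, from -0.0467 to 0.0481 for NaBu and from -0.0162 to 0.0871 for VPA against NaBu. In the 3 treatment comparisons, calls with an array left out arose only in fits that kept the block. Leaving out an array removes the match within its replicate, and the cause of the shifts in counts and medians was not tested. For replicate number, 9 Wnt genes and 2313 genes in all were called. With other scaling, filtering or the intensity trend, 9 to 11 Wnt genes and 2325 to 2980 genes were called. The filter tested only 34 Wnt genes among 9969 genes, here and in the treatment comparisons. For replicate number it called 11 of these 34 and 2644 of the 9969. Leaving out an array gave 2 to 11 Wnt genes and 716 to 2434 genes, lowest without either NaBu array. Dkk3 lost its call under median centring and quantile normalisation, with adjusted p of 0.0529 and 0.0528 and differences of 0.33 and 0.35, beside 0.37. With all arrays kept, the block, the filter and the intensity trend cannot change a difference. A sign could change only under median centring, quantile normalisation or, for 1 Wnt gene, the mean of its probesets. Of the 28 named Wnt genes, 28 then held their sign with VPA, 26 with NaBu, 25 for VPA against NaBu and 25 for replicate number. With arrays left out included, these counts were 16, 8, 13 and 20.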
